A study of Rattus norvegicus with 3 samples.

Results

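The 7 genes that encode the subunits of the NMDA receptor (Grin1, Grin2a, Grin2b, Grin2c, Grin2d, Grin3a and Grin3b) were read in the hippocampus of rats given Q808. They were found by their NCBI gene identifiers, and all 7 had a row among the 18560 genes of replicate 2. Q808 is a code name for a candidate antiseizure compound. The study's 3 samples form 1 group: wild-type, healthy animals dosed with Q808 by gavage over 28 days (the sources used here give no sex, age or strain). No untreated sample was analysed here, so no value below is an effect of Q808. The files of replicates 1 and 3 break off after 12 and 307 genes in alphabetical order, before the first Grin gene, so every value of a subunit gene comes from replicate 2 alone and has no replicate check. The count columns carry the prefix Con_Q, which no source used here explains.

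NMDA receptors are glutamate-gated cation channels built of 4 subunits. GluN1, the product of Grin1, is in every one of them and binds the co-agonist glycine or D-serine, while the GluN2 subunits (Grin2a to Grin2d) bind glutamate and set how long the channel stays open. GluN3 subunits (Grin3a and Grin3b) bind glycine and lower the calcium permeability of the channel. The receptor passes calcium only when glutamate is bound and the membrane is depolarized, and in the hippocampus this current starts the strengthening and weakening of synapses. Blockers of the channel stop seizures in animals, and overactivation kills neurons.

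Promoter sequences are shown for the genes with the most and the fewest counts among the 4 members (Grin1, Grin2c, Grin2d and Grin3a) that matched the RefSeq promoter table, which covers 250 bases before to 50 after each gene's start in build GRCr8. Grin2a, Grin2b and Grin3b had no entry. Both are printed 5′ to 3′ along the gene, with each CG dinucleotide in capitals. Grin1 lies at chr3:28528705-28529004 and Grin3a at chr5:69001509-69001808, both on the minus strand.
Grin1: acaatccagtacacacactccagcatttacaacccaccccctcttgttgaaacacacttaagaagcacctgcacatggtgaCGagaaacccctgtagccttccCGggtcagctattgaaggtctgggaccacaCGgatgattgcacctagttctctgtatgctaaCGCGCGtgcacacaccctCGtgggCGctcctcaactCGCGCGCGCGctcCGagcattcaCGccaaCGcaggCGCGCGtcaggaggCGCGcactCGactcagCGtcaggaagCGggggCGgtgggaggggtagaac
Grin3a: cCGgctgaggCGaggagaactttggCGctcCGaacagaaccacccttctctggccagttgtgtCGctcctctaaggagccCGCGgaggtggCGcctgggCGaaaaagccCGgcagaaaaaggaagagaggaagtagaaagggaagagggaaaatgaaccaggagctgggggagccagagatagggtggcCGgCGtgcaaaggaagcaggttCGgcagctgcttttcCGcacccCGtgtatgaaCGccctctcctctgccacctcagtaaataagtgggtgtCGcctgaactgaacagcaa

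The Grin1 stretch holds 25 CG dinucleotides, and 16.6% of the 33469 promoters in the table hold at least as many. That of Grin3a holds 17 (29.0% of promoters hold at least as many), and those of Grin2c and Grin2d hold 11 each (39.0%), against a median of 7. The 4 stretches are alike in GC content, at 58.7% to 60.7% against a median of 51.7%. Near its 3′ end the Grin1 stretch carries the letters GCGGGGGCG, which EGR factors are known to bind, overlapping the GC box GGGCGG, known to be bound by Sp1. With both strands searched, 2.73% of all promoters hold the first and 33.1% the second, and neither is in the other 3 stretches. The cAMP response element TGACGTCA (1.83% of promoters) and the TATA box TATAAA (14.2%) are in none of the 4. These motifs were chosen after the sequences had been seen, and a match describes letters in a window, not a bound site.

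Levels are given as counts and as counts relative to 1000000 counts of the library total (CPM), with 95% exact Clopper-Pearson intervals that cover counting error only. For a gene with no count, the limit given is a floor of 3 counts (0.195 CPM), and the exact interval reaches 0.239 CPM. Neither the reference tables nor the files used here give transcript lengths, so no level could be set per length. A longer counted transcript gives more reads per molecule, and each ratio below is one of reads. In a piece of tissue, fewer cells of a type and less RNA per cell cannot be told apart.

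All 7 subunit genes had at least 10 counts, which 77.0% of all genes in the table had. Of the 7, 3 reached 100 CPM (Grin1, Grin2b and Grin2c), as did 13.1% of all genes. Their median was 67.2 CPM, against 25.2 CPM over all genes with at least 10 counts. Together they held 21063 counts, or 0.137% of the library. The members were far apart, with 697 times as many reads for Grin1 as for Grin3b (95% counting interval 422 to 1246).

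Grin1, the obligatory subunit gene, had the most reads of the family. Its 10457 counts, or 678 CPM (665 to 691), placed it at rank 157 of all genes, and 99.2% of genes had fewer counts. It took 49.6% of the reads of the 7 genes (48.97% to 50.3%). The 4 GluN2 genes summed to 10521 counts, 1.01 times those of Grin1 (0.979 to 1.03). That sum was formed after the counts had been seen, and without lengths it is no ratio of subunits.

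Among the GluN2 genes, Grin2b held most of the reads. GluN2B gives slowly closing channels, is the main GluN2 subunit of the young forebrain and is the target of ifenprodil. Grin2b had 7189 counts, or 466 CPM (456 to 477), at rank 285. It took 68.3% of the reads of the 4 genes (67.4% to 69.2%).

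Grin2c was next, ahead of Grin2a. GluN2C is known foremost from cerebellar granule neurons, and Grin2c had 2011 counts, or 130 CPM (125 to 136), which was 19.1% of GluN2 reads (18.4% to 19.9%). Of 8 listed genes of cerebellar granule neurons, 5 had at least 10 counts, as did 77.0% of all genes. Etv1 had 1869 counts (121 CPM), Zic2 had 308, Cbln1 had 267, Zic1 had 168 and Pax6 had 100. Gabra6 had 4 counts, Barhl1 had 5 and Cbln3 had none (floor of 3 counts, 0.195 CPM). The list summed to 176 CPM, of which Etv1 alone gave 121 CPM. Neuron, astrocyte and interneuron markers were also read in this library, with medians of 1094, 671 and 57.4 CPM. Which cells the Grin2c reads came from was not tested.

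Grin2a, the gene of the GluN2 subunit that gives fast-closing channels and is abundant in the adult forebrain, had 1036 counts. This was 67.2 CPM (63.2 to 71.4) at rank 3665, and 9.85% of GluN2 reads (9.28% to 10.4%). Grin2b thus had 6.94 times the reads of Grin2a (6.50 to 7.41), a ratio that is not corrected for length. RefSeq for GRCr8 lists 1 transcript for Grin2a, as for Grin3b. For the other members it lists 3 for Grin3a, 5 for Grin2d, 6 for Grin2b, 8 for Grin1 and 18 for Grin2c. The genome build behind the counts is not given, so these need not be the gene models that were counted. The part of counted lengths and gene models in these counts was not tested.

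Grin2d, whose product gives the slowest-closing channels and is found in adult hippocampus mainly in interneurons, had 285 counts. At 18.5 CPM (16.4 to 20.8) it held 2.71% of GluN2 reads (2.41% to 3.04%), and Grin2b had 25.2 times its reads (22.4 to 28.5). The 7 interneuron markers with a row ran from 18.3 CPM (Lhx6) to 363 CPM (Gad1, which encodes a GABA-synthesizing enzyme) in the same library, with a median of 57.4 CPM.

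The GluN3 genes had the fewest reads. Grin3a, whose product is known to be most abundant early after birth, had 70 counts, or 4.54 CPM (3.54 to 5.74). Grin3b, known mainly from motor neurons, had 15 counts, or 0.973 CPM (0.545 to 1.60). The pair held 0.404% of the reads of the 7 genes (0.322% to 0.499%). Grin3b passed the minimum of 10 counts narrowly, and its interval reaches 64.9% from its value, against 1.94% for Grin1.

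**Figure D1:**
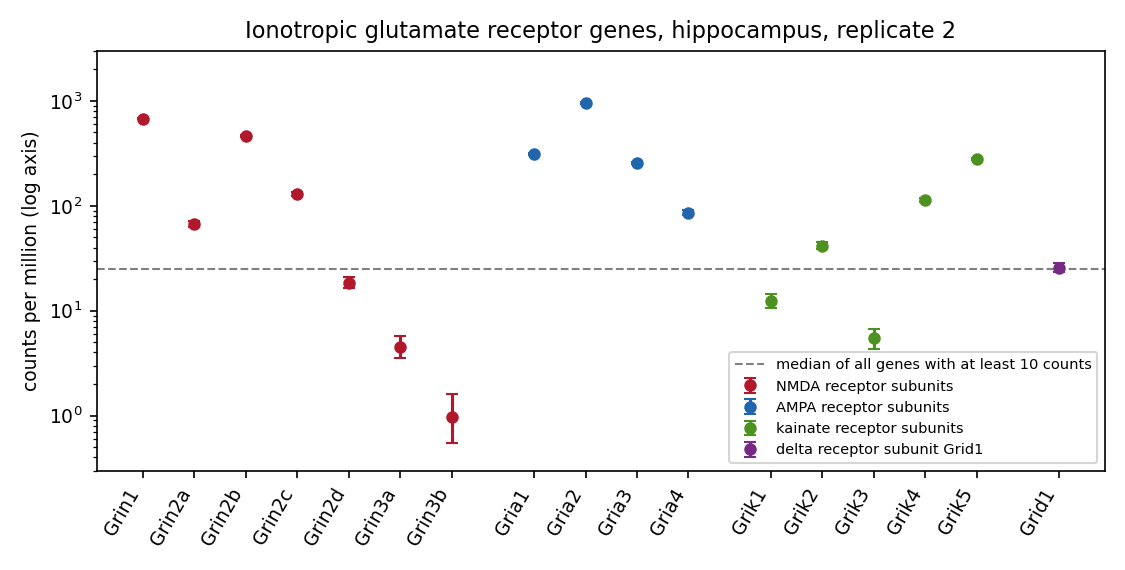
CPM on a log axis for the 7 NMDA, 4 AMPA, 5 kainate receptor genes and the delta receptor gene Grid1 in replicate 2; points are single values, bars are 95% exact counting intervals and the dashed line is the median of all genes with at least 10 counts (25.2 CPM). The NMDA genes run from 0.973 CPM for Grin3b to 678 CPM for Grin1, with 4 above the line and 3 below it.

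The order of reads was Grin1, Grin2b, Grin2c, Grin2a, Grin2d, Grin3a, Grin3b. Counting intervals of neighbours did not overlap. Neighbours differed by 1.45-fold (Grin1 over Grin2b), 3.57-fold (Grin2b over Grin2c), 1.94-fold (Grin2c over Grin2a), 3.64-fold (Grin2a over Grin2d), 4.07-fold (Grin2d over Grin3a) and 4.67-fold (Grin3a over Grin3b). As the subunit genes have no second sample, the spread between samples was read from other genes. In replicates 2 and 3 alike, 243 genes reached 10 counts. Of these, 95% lay within 1.65-fold of each other after scaling, and 95% of the 29403 ratios formed from pairs of them moved by less than 2.25-fold from one library to the other. Among 67 genes that reached 1000 counts in both libraries, 95% of pair ratios moved by less than 1.31-fold. This minimum was chosen after the data had been seen. Grin1, Grin2b, Grin2c and Grin2a reached it in replicate 2, and their counts in replicate 3 are unknown. The steps from Grin1 to Grin2b and from Grin2c to Grin2a were thus smaller than the spread of all shared genes and larger than that of genes with many reads. The other 4 steps were larger than both. Over shared genes with as little as 1 count the spread of pair ratios was 4.83-fold, larger than all 6 steps, and the step from Grin3a to Grin3b rests on the fewest reads.

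**Figure D2:**
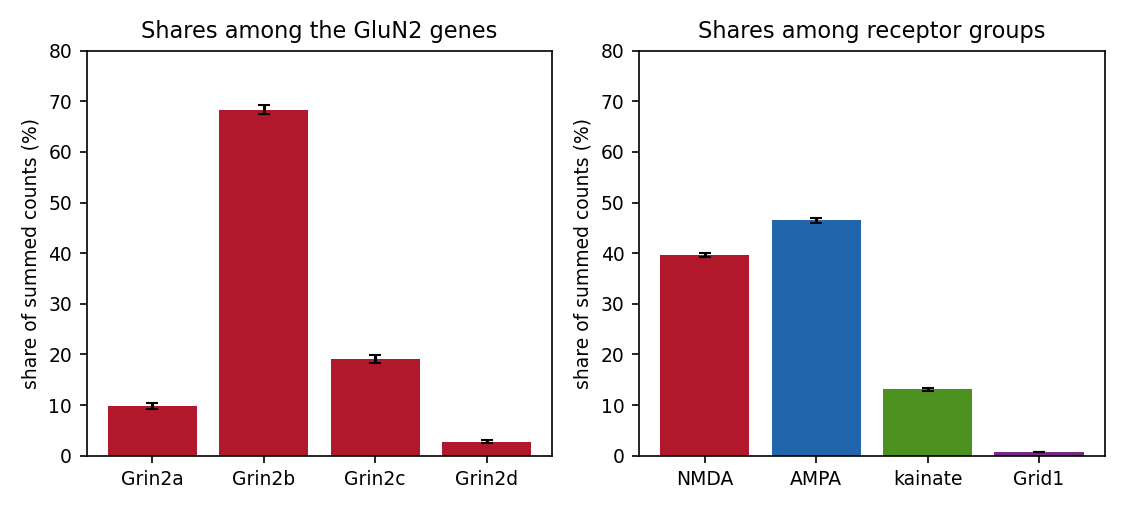
Shares of summed counts in percent, in replicate 2, for the 4 GluN2 genes (left) and for 3 receptor families and Grid1 among 17 ionotropic glutamate receptor genes (right); error bars are 95% exact binomial intervals. Grin2b takes 68.3% of GluN2 reads, and the NMDA genes take 39.6% of these receptor reads beside 46.5% for the AMPA genes.

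Among 17 ionotropic glutamate receptor genes, the NMDA genes held 39.6% of reads (39.2% to 40.1%). The AMPA receptor genes, which carry fast excitatory transmission, held 46.5% (46.0% to 46.9%) with only 4 members. Their highest gene, Gria2, whose product makes AMPA receptors impermeable to calcium, had 949 CPM, or 1.40 times the reads of Grin1 (1.36 to 1.43). Gria1 had 311 CPM, Gria3 had 256 CPM and Gria4 had 86.1 CPM. The kainate genes held 13.1% and ran from Grik3 (5.45 CPM) over Grik1 (12.4 CPM), Grik2 (41.5 CPM) and Grik4 (114 CPM) to Grik5 (280 CPM). The delta receptor gene Grid1 (25.6 CPM) held 0.744%.

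The genes that supply and remove the co-agonists of GluN1 had moderate reads. Of 13 listed genes, 11 had at least 10 counts (77.0% of all genes did), with a median of 30.2 CPM. The serine synthesis genes Psat1 and Phgdh had 179 and 65.6 CPM, and Slc6a9, which encodes the glycine transporter GlyT1, had 95.9 CPM. Srr, the gene of serine racemase, which makes D-serine, had 44.8 CPM (41.5 to 48.2). Dao, whose product breaks D-serine down, was at 0 counts (floor of 3 counts, 0.195 CPM). Glyat had no row.

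Kynurenine pathway enzymes make kynurenic acid, a blocker of the receptor, and quinolinic acid, an agonist. Of 8 listed genes, 5 had at least 10 counts (77.0% of all genes did), with a median of 11.03 CPM. The transaminase genes Got2, Kyat1 and Kyat3 had 328, 18.8 and 11.03 CPM, and Got2 is mainly an enzyme of mitochondrial metabolism. On the quinolinic acid branch, Kynu had no count (floor of 3 counts, 0.195 CPM), Haao had 2 counts, Kmo had 7 and Qprt had 28. Aadat, whose product is the main kynurenic acid enzyme of rat brain, is the only listed partner gene held by all files. It had 172 counts in replicate 1, 114 in replicate 2 and 170 in replicate 3. After scaling, replicate 3 was 1.44-fold above replicate 2 (counting interval 1.13 to 1.85). Replicate 2, the source of all subunit values, was thus the lowest in raw counts, although replicate 1 has no known depth. Over the 7 genes with 10 counts or more in every file, the chi-square was divided by its degrees of freedom. It was 1.37 between replicates 1 and 3, 3.48 between 1 and 2, and 4.42 between 2 and 3. The fold that holds 95% of these genes was 1.52 between replicates 1 and 3 and 1.24 between 1 and 2. With 7 genes, a shared library cannot be told from separate but like samples. Replicates 1 and 3 are therefore not counted as separate samples in any mean here.

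Scaffold genes and other partner genes of the receptor, listed together, differed widely in reads. All 22 listed genes had at least 10 counts, 11 reached 100 CPM, and the median was 102 CPM. Of all genes, 77.0% had at least 10 counts and 13.1% reached 100 CPM. Dlg4, which encodes PSD-95, the scaffold that binds the tails of GluN2 subunits, had 810 CPM. The neurofilament gene Nefl had 801 CPM, and Dlgap1, whose product links PSD-95 to Shank proteins, had 543 CPM. The lowest was Lin7a at 2.34 CPM. The alpha-actinins, which bind GluN1 and GluN2B tails, were also held by the file of replicate 3. Actn1 had 1539 counts in replicate 2 and 1404 in replicate 3, a scaled ratio of 0.883 (0.820 to 0.949). Actn2, the form described at synapses, had 522 and 634 counts (1.18-fold, 1.04 to 1.32), and Actn4 had 2239 and 2621 counts (1.13-fold, 1.07 to 1.20).

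The list of kinase and phosphatase genes, which also holds a kinase activator gene and an anchoring protein gene, had a higher median, at 183 CPM. All 23 were at 10 counts or more and 16 at 100 CPM or more. The shares of all genes at these levels were 77.0% and 13.1%. Camk2b, a subunit gene of the calmodulin-dependent kinase that docks on GluN2B, had 1721 CPM. Ppp3ca, which encodes a catalytic subunit of calcineurin, had 1539 CPM, and Ptk2b, whose product Pyk2 activates Src at the receptor, had 870 CPM. Receptor modulators and surface partners (13 genes, all at 10 counts or more, 6 at 100 CPM or more) had a median of 87.7 CPM. They were led by Grina at 747 CPM, Rack1 at 208 CPM and the auxiliary subunit gene Neto1 at 139 CPM. Grina carries the receptor's name but encodes a membrane protein of another family, which is no channel subunit.

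Genes of the calcium signal that follows channel opening had the highest median of the 6 partner lists, at 195 CPM. All 15 had at least 10 counts and 9 reached 100 CPM, beside 77.0% and 13.1% of all genes. Calm2 and Calm3 had 976 and 945 CPM. Both encode calmodulin, and how the authors' counting split reads between such similar genes is not known. Adcy1, a calcium-stimulated adenylate cyclase gene, had 1192 CPM, with 18383 counts in replicate 2 and 21634 in replicate 3 (1.14-fold, 1.12 to 1.16). Adcy8, the other calcium-stimulated form, had 206 and 258 counts (1.21-fold, 1.005 to 1.46). None of the 6 partner genes held by both files (Aadat, Actn1, Actn2, Actn4, Adcy1 and Adcy8) lay past 1.5-fold, and 10.3% of the 243 shared genes did.

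**Figure D3:**
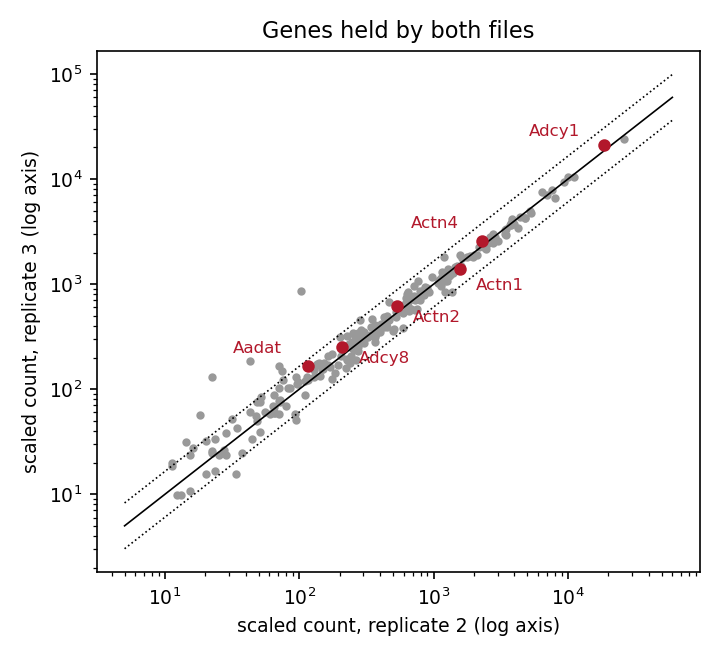
Scaled counts of the 243 shared genes in replicates 2 and 3 on log axes; the solid line is equality, the dotted lines mark 1.65-fold, and the 6 partner genes of the receptor are in red. All 6 lie between the dotted lines.

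**Figure D4:**
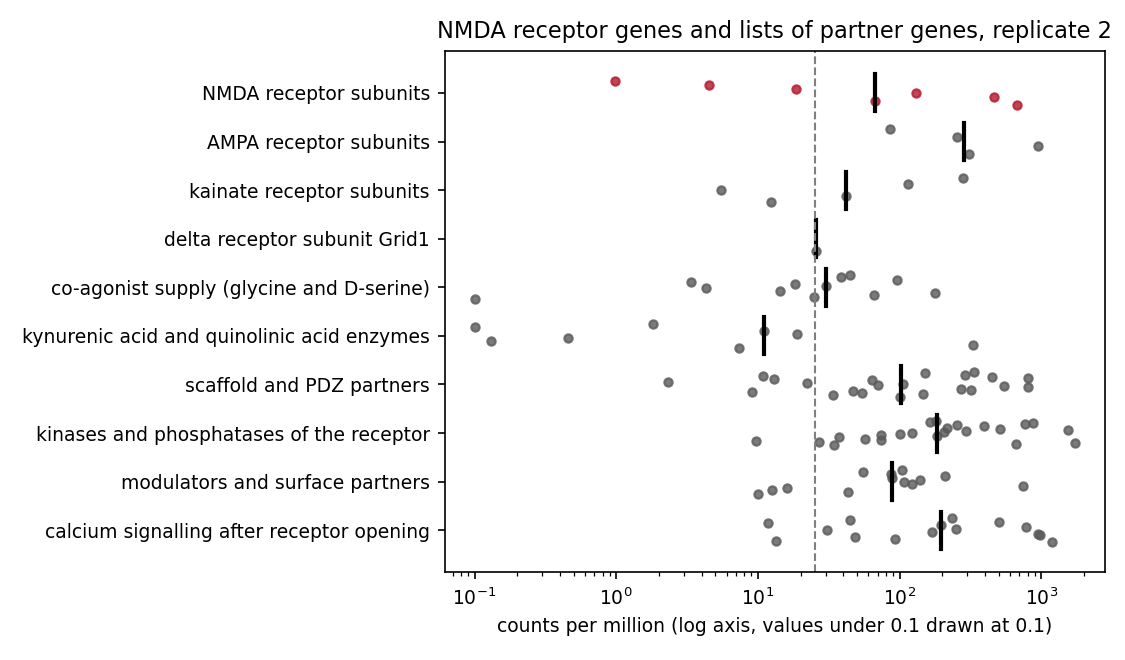
CPM of each gene in replicate 2, by list, on a log axis; black bars are medians over genes with at least 10 counts and the dashed line is the median of all such genes (25.2 CPM). Points of the NMDA receptor genes (red) run from 0.973 to 678 CPM, while the scaffold, kinase and calcium signalling lists have medians of 102, 183 and 195 CPM.

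The files' own annotation gives the members further common ground. All 7 were assigned to 7 KEGG pathways: glutamatergic synapse, neuroactive ligand-receptor interaction, cAMP signaling, alcoholism, and amphetamine, cocaine and nicotine addiction. Grin1 and the 4 GluN2 genes, without the GluN3 genes, were also in the long-term potentiation pathway, where 62 of 65 genes had at least 10 counts with a median of 131 CPM. In the glutamatergic synapse pathway 105 of 109 genes had at least 10 counts, as did 77.0% of all genes. The median in that pathway was 88.2 CPM, with Grin1, Grin2b and Grin2c above it and the other 4 members below it.

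Markers of the labelled tissue differed widely in reads. All 10 listed genes of hippocampal principal neurons had at least 10 counts. So did 77.0% of all genes, and every listed thalamus and choroid plexus gene. The vesicular glutamate transporter gene Slc17a7 had the most reads of the 10 (1796 CPM). Zbtb20 and Fibcd1 were lowest at 3.44 and 2.53 CPM, below the median of 12.7 CPM over all genes. All 8 neuron markers reached 100 CPM, as did 13.1% of all genes, with Snap25 at 2479 CPM. Markers of other cell types and regions were read as well. Astrocyte markers ran from 25.6 CPM to 1170 CPM (S100b) and those of oligodendrocytes from 108 CPM to 5578 CPM (Mbp). Oligodendrocyte precursor markers ran from 26.1 CPM to 197 CPM (Olig1), microglia markers from 10.6 CPM to 61.7 CPM (Csf1r), endothelial markers from 5.90 CPM to 140.3 CPM (Slc2a1) and thalamus markers from 8.04 CPM to 26.1 CPM (Slc17a6). Of the choroid plexus list, Ttr had 176 CPM and the other 4 genes had 1.95 to 4.15 CPM. Of the blood list, Hba-a1 had 127 CPM, Hbb 67.3 CPM, Alas2 1.43 CPM and Slc4a1 0.259 CPM. Of the interneuron list, Npy had no row.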

How the data were processed

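RNA from rat hippocampus was extracted with TRIzol, captured as mRNA on beads and made into libraries with Vazyme and MGI kits, per the labels' protocols. The tools were HISAT2, Bowtie2, StringTie, Cufflinks, HTSeq, DESeq, SAMtools and Trimmomatic, per the submitters' processing notes, which give no version or role. Genome build and strand setting: not given in the sources used here. Each deposited file holds unnormalized counts per gene, and nothing says that the samples are separate animals. The file of replicate 2 holds 15417009 counts. Those of replicates 1 and 3 hold 11402 and 298642 counts of the first genes only, so their depth is unknown.

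Symbols came from RefSeq (GRCr8), matched by gene identifier for 17515 of 18560 genes. CPM, shares and ratios of counts were computed with exact binomial intervals (scipy 1.17.1). Replicates 2 and 3 were scaled by TMM (edgeR 4.0.16) over shared genes. The scaling was tested on simulated data with means from genes of at least 50 counts, which does not cover genes near 10 counts. DESeq2 1.42.0 size factors, other minimums and other totals were alternatives. The planned levels per coding length were not computed, since no lengths were at hand. No test between conditions was possible with 1 group.

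The members and lists were chosen with earlier results of these data known. Named were ionotropic receptor genes, the 3 partner genes per list with the most counts, those without a row or count, those held by several files, and the highest marker per cell type. Srr, Kmo, Haao, Qprt, Lin7a, Lhx6, Zbtb20, Fibcd1 and the other cerebellar and blood markers were named after their values were seen. Some genes of the rule are not reported here and were left out of lists and shares.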

Additional observations from a re-analysis of the deposited data

How the results depend on the processing

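With the 100 genes with the most counts left out of the total, the median of the 7 subunit genes was 79.9 CPM against 67.2, and 5 of the 7 levels left their counting interval upward. With protein-coding genes as the total, all 7 stayed inside it. Shares and ratios between subunit genes do not depend on the total. The median over the 6 subunit genes with at least 50 counts was 93.7 CPM. Of the 10 lists, 9 had a median above that of all genes under the same minimum, also with no filter, and 7 with at least 50 counts. The 9 include the delta receptor list, which is Grid1 alone at 25.6 CPM. Its counting interval (23.2 to 28.3) covers the median of all genes with at least 10 counts, 25.2 CPM. The fold that holds 95% of shared genes between replicates 2 and 3 was 1.65. It was 1.64 when DESeq2 size factors set the scale and 2.93 over the 280 genes with at least 1 count in each. With at least 1000 counts in each it was 1.19, a minimum chosen after seeing the data. Leaving out 1 replicate gave 1.24 to 1.65, where the values without replicate 2 or 3 rest on 7 genes. Leaving out replicates 1 or 3 changes no subunit value, and leaving out replicate 2 leaves none. Per-length alternatives were not run, for want of lengths. No paired analysis was possible because the study has a single group of samples.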

Other observations

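By the Gene Ontology terms in the deposited files, 12 genes belong to the NMDA selective glutamate receptor complex. All 12 had at least 10 counts, as did 77.0% of all genes. The 7 subunit genes are among the 12. The other 5 are Ptk2b (870 CPM), Shank1 (451 CPM), Dlgap3 (319 CPM), Nlgn1 (87.7 CPM) and Eps8 (56.6 CPM), and they are scaffold, kinase, adhesion and actin-regulating genes and not channel subunits. The term for NMDA glutamate receptor activity covers 6 of the 7 subunit genes, all but Grin3b, and also Ptk2b, a kinase gene. Of 16 genes annotated to the regulation of NMDA receptor activity, Ptk2b, Dlg4 (810 CPM), Cnih2 (613 CPM), known as an AMPA receptor auxiliary subunit gene, and Rasgrf1 (504 CPM) had the most counts, and Oprm1, the mu opioid receptor gene, had the fewest with 11.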
